A study of Mus musculus with 4 samples.

Results

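The nuclei described here are fibroblasts of the mouse ventricle that carried the transcripts of Col6a6, Gfra1, Rgs17 and Kcnip1 with few transcripts of activation genes and fewer of adventitial genes than of these 4. They numbered 1145 of the 19584 nuclei kept in all 4 libraries, and of 5164 nuclei that passed as fibroblasts. Running infarct hearts gave 80 of them, sedentary infarct hearts 165, running hearts 473 and sedentary hearts 427. A nucleus entered with at least 5 unique molecular identifiers (UMIs, the counted transcripts) of Abca8a, Pdgfra, Dcn and Col1a2 together, at most 2 of Flt1, Ptprb and Pecam1, and under 1% of its UMIs from Ttn and Ryr2. It also had at most 4 UMIs of the activation genes Postn, Col12a1, Col11a1, Cthrc1, Comp and Ltbp2. The last condition asked for at least 2 UMIs of Col6a6, Gfra1, Rgs17 and Kcnip1, and more of these than of the adventitial genes Pi16, Scara5, Efhd1, Gfpt2 and Plcxd3. The nuclei were thus selected on the measured UMIs of these 24 genes, whose levels are given as description.

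The hearts came from wild-type C57BL/6J mice of both sexes, 8 weeks old at the start, which had a running wheel for 16 weeks or stayed sedentary. The running infarct and sedentary infarct groups were taken 2 weeks after surgery to cause a myocardial infarction, 4 hearts per group, and the running and sedentary groups had no infarct surgery named in the labels, 2 hearts per group. Frozen ventricles of each group were combined, and Hoechst-positive nuclei were sorted from the pool and loaded into 1 well of a droplet assay that counts transcripts at their polyadenylated end. Each group is thus 1 library (n = 1), no difference between groups was tested, and treatment, hearts and library cannot be told apart. Values in brackets after a share or ratio give its 95% interval, which holds the error of counting and no difference between animals. Intervals of gene levels and their ratios treat UMIs as independent, so they also leave out the uneven spread of UMIs over nuclei.

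Fibroblasts of the ventricular wall lie between the cardiomyocytes, where they lay down and turn over collagens, basement membrane and elastic fibres. After an infarct a fraction of them divide and turn into matrix-secreting, contractile myofibroblasts, while fibroblasts around large vessels and under the epicardium keep a separate, Pi16-bearing programme. Of the genes in the rule, Col6a6 encodes a chain of collagen VI, Gfra1 the co-receptor for the growth factor GDNF, Rgs17 a regulator of G-protein signalling, Kcnip1 a potassium channel subunit and Abca8a an ABC transporter.

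Depth was similar in the 4 libraries but their other properties were not. The selected nuclei held 344014 UMIs in the running infarct, 735776 in the sedentary infarct, 2043781 in the running and 1643307 in the sedentary library, and the median per nucleus was 3712.5 UMIs in running infarct, 3932 in sedentary infarct, 4104 in running and 3472 in sedentary nuclei. Mitochondrial transcripts made up a median of 4.36% of UMIs per nucleus in the running infarct, 2.97% in the sedentary infarct, 9.84% in the running and 4.87% in the sedentary library. Nuclei with a Y-linked transcript made up 42.5% of them in the running infarct, 29.7% in the sedentary infarct, 60.04% in the running and 48.2% in the sedentary library, so the pools may hold males and females in different shares. Pairs of libraries shared 2 to 12 barcodes, none of them among the selected nuclei of both libraries of a pair. Cardiomyocyte transcripts were present throughout, as 12 of 12 markers with a summed level of 1996 counts per 1000000 UMIs (CPM) in running infarct, 2361 in sedentary infarct, 2832 in running and 3284 CPM in sedentary nuclei. With every nucleus thinned to 1500 UMIs, a Ttn transcript was seen in 40.8 to 65.2% of the selected nuclei and in 45.5 to 68.5% of endothelial nuclei, so these transcripts were not particular to the selected nuclei.

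Markers of other cell types were low but not equal. Nuclei with at least 5 UMIs of the defining markers of pericytes, smooth muscle, macrophages, lymphocytes, mesothelium, lymphatic endothelium or Schwann cells made up 16 of 80 (20%) in the running infarct, 20 of 165 (12.1%) in the sedentary infarct, 39 of 473 (8.25%) in the running and 27 of 427 (6.32%) in the sedentary library. They are called marked nuclei below, and values without them are given where they change a statement. All 7 pericyte markers were detected, and their sum was 1021 CPM in running infarct, 754 in sedentary infarct, 502 in running and 435 CPM in sedentary nuclei. Mesothelial markers summed to 303 CPM in running infarct, 208 in sedentary infarct, 51.1 in running and 62.0 CPM in sedentary nuclei. Macrophage markers, 8 of 8 detected, did not follow the infarct, at 542 CPM in running infarct, 426 in sedentary infarct, 500 in running and 513 CPM in sedentary nuclei. The smooth muscle genes Tagln and Cnn1 were at 0 in running infarct nuclei, the T cell gene Cd3g was at 0 in every library, and adipocyte markers summed to at most 2.83 CPM. Other smooth muscle and T cell markers were present. T cell markers reached 5 UMIs in 1 running infarct, 2 sedentary infarct, 4 running and 1 sedentary nuclei. Of 6 smooth muscle markers, 1 had at least 100 UMIs over running infarct and running nuclei.

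The 4 genes that define the set were held by different nuclei in different combinations. Summed, they stood at 1275 CPM in running infarct, 1533 in sedentary infarct, 1906 in running and 1911 CPM in sedentary nuclei. Kcnip1 was lowest in one library, at 348 CPM in running infarct, 683 in sedentary infarct, 738 in running and 599.6 CPM in sedentary nuclei. Gfra1 was at 236 CPM in running infarct, 337 in sedentary infarct, 453 in running and 541 CPM in sedentary nuclei. Its values were lower in both infarct libraries. Rgs17 was at 369.5 CPM in running infarct, 318 in sedentary infarct, 429 in running and 398 CPM in sedentary nuclei. The Rgs17 values differed by less than 1.5-fold with infarct in runners and in sedentary mice. Nuclei were admitted on the UMIs of these genes, so their levels describe the set and are no result about infarct. Col6a6 was at 321 CPM in running infarct, 195 in sedentary infarct, 286 in running and 373 CPM in sedentary nuclei, lowest in the sedentary infarct library. Abca8a stood at 2014 CPM in running infarct, 3199.8 in sedentary infarct, 4179 in running and 3333 CPM in sedentary nuclei. After thinning, a Col6a6 transcript was seen in 26.3% of running infarct, 24.1% of sedentary infarct, 29.6% of running and 39.5% of sedentary nuclei, against 0.6 to 0.8% of endothelial nuclei.

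**Figure D1:**
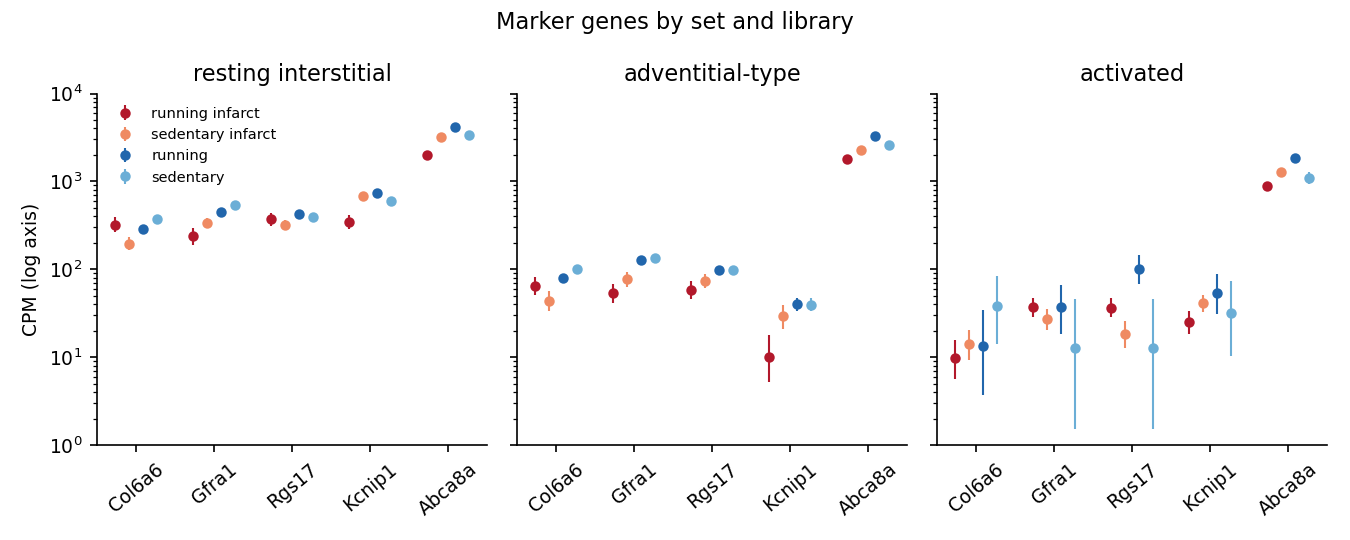
Levels of the marker genes in CPM (log axis) for resting interstitial, adventitial-type and activated nuclei in each of the 4 libraries, with bars for the 95% counting interval. Abca8a was high in the resting and adventitial-type sets, while Col6a6, Gfra1, Rgs17 and Kcnip1, by which the resting set was chosen, were lower in the other sets.

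Most nuclei carried only some of the 4 genes. UMIs of a single one of them made up the whole sum in 40 of 80 running infarct nuclei (50%), 56 of 165 sedentary infarct (33.9%), 92 of 473 running (19.5%) and 72 of 427 sedentary nuclei (16.9%). All 4 genes were seen together in 0 of 80 running infarct, 6 of 165 sedentary infarct (3.64%), 57 of 473 running (12.1%) and 44 of 427 sedentary nuclei (10.3%). Rgs17 alone placed 18 of the 80 running infarct nuclei in the set. At the edge of the rule, 16 running infarct, 33 sedentary infarct, 49 running and 54 sedentary nuclei had exactly 2 UMIs of the 4 genes, while 23, 21, 39 and 34 nuclei of the same libraries stayed outside with 1 such UMI and none of an adventitial gene. A lead of 1 UMI over the adventitial genes admitted 19 running infarct, 33 sedentary infarct, 97 running and 74 sedentary nuclei, and a tie kept 9, 22, 58 and 48 out. The activation limit mattered in the infarct libraries, where 18 running infarct and 18 sedentary infarct nuclei were left out by it, against 2 running and 0 sedentary nuclei.

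The fibroblast genes Dcn and Pdgfra, which belong to the rule and so check nothing, stood at 1272 and 551 CPM in running infarct, 1726 and 654 in sedentary infarct, 1856 and 711 in running and 1553 and 806 CPM in sedentary nuclei. As a check of the label, 12 of 12 cardiomyocyte and 10 of 10 endothelial markers summed to the cardiomyocyte levels given above and, for endothelial genes, to 476 to 679 CPM. The word resting rests on the activation limit of the rule, and 45 of 80 running infarct, 73 of 165 sedentary infarct, 414 of 473 running and 372 of 427 sedentary nuclei had no UMI of the 6 activation genes. Position in the tissue was not measured, so interstitial remains a name. The Pi16-bearing fibroblasts used for comparison, chosen by the mirror image of the rule with at least 2 UMIs of the adventitial genes and more of these than of the other 4, numbered 2295, and fibroblasts over the activation limit 705.

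The set took up a smaller share of fibroblast nuclei in both infarct libraries, and the smallest in the running infarct library. It made up 9.37% of fibroblast nuclei (7.50 to 11.5) in the running infarct, 16.3% (14.1 to 18.7) in the sedentary infarct, 27.1% in the running and 27.5% in the sedentary library. The ratio of shares was 0.346 (0.277 to 0.432) for running infarct over running and 0.591 (0.503 to 0.694) for sedentary infarct over sedentary. Between running and sedentary it was 0.983 (0.880 to 1.10), with 1.15 among Y-positive and 0.811 among Y-negative nuclei, and between running infarct and sedentary infarct 0.576 (0.448 to 0.740). Activated fibroblasts made up 35.0% in the running infarct, 31.0% in the sedentary infarct, 3.21% in the running and 2.32% in the sedentary library. Adventitial-type nuclei made up 29.7% in the running infarct, 31.4% in the sedentary infarct, 51.0% in the running and 53.7% in the sedentary library. Their ratio of shares was 0.583 for running infarct over running and 0.584 for sedentary infarct over sedentary, and 0.948 between the infarct libraries. Fibroblast nuclei in none of these sets made up 25.9% in the running infarct, 21.4% in the sedentary infarct, 18.7% in the running and 16.5% in the sedentary library. Their ratio was 1.39 (1.19 to 1.61) for running infarct over running and 1.30 (1.11 to 1.53) for sedentary infarct over sedentary. Their median depth in the running infarct library was 2760 UMIs. Whether nuclei of the set passed into this group with infarct was not tested.

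Set against adventitial-type nuclei alone, the lower share was seen in the running infarct library. The selected nuclei made up 24.0% (19.5 to 28.9) of both sets together in the running infarct, 34.2% (29.9 to 38.6) in the sedentary infarct, 34.7% (32.2 to 37.3) in the running and 33.9% (31.3 to 36.6) in the sedentary library. The interval of the running infarct library lay below the other 3, whose intervals overlapped. The shares depend on sorting, on the depth at which 2 UMIs are seen and on the activation limit. Without that limit the set held 98 running infarct, 183 sedentary infarct, 475 running and 427 sedentary nuclei. In the running infarct library these shares also rest on a set in which marked nuclei made up 20%, against 16.5% of adventitial-type and 12.4% of activated nuclei there. Without marked nuclei the ratio of shares was 0.327 for running infarct over running, 0.613 for sedentary infarct over sedentary and 0.525 for running infarct over sedentary infarct.

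**Figure D2:**
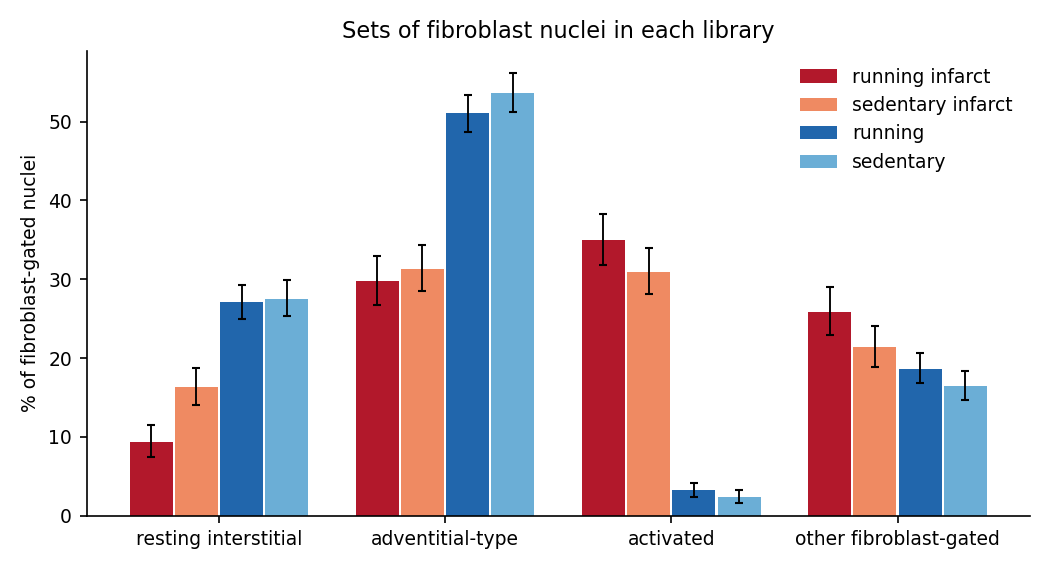
Shares of fibroblast nuclei, in percent, taken by resting interstitial, adventitial-type, activated and other fibroblast nuclei in each library, with 95% counting intervals. The resting set made up 9.37% in the running infarct, 16.3% in the sedentary infarct, 27.1% in the running and 27.5% in the sedentary library.

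Within each library the selected nuclei were close to the adventitial-type nuclei outside the rule genes. Of 3613 genes measured in both sets in every library, 14 (0.387%) were at least 1.5-fold higher in all 4 libraries and 43 (1.19%) at least 1.5-fold lower. The comparison is a description, because the sets were cut from genes of these nuclei. Notch3, a receptor of the Notch pathway, stood at 221 CPM in running infarct, 188 in sedentary infarct, 118 in running and 103 CPM in sedentary resting nuclei, against 35.4, 78.4, 37.2 and 30.2 CPM in adventitial-type nuclei of the same libraries. Its log2 ratio was 2.64, 1.26, 1.67 and 1.77, and without marked nuclei it lay between 1.48 and 2.48. Notch3 is also one of the pericyte markers, whose sum in adventitial-type nuclei was 276 CPM in running infarct, 425 in sedentary infarct, 341 in running and 333 CPM in sedentary libraries, lower than in resting nuclei in all 4.

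Adap2, Bmper and Spon1 were among the others on the resting side. Adap2, a GTPase-activating protein for ARF6, stood at 245 CPM in running infarct, 436 in sedentary infarct, 393 in running and 403 CPM in sedentary resting nuclei, against 121, 152, 163 and 154 CPM in adventitial-type nuclei. Bmper, a secreted modulator of BMP signalling, was at 436 CPM in running infarct, 513 in sedentary infarct, 652 in running and 724 CPM in sedentary resting nuclei, against 274, 301, 380.3 and 414 CPM. The matrix protein gene Spon1 was at 463 CPM in running infarct, 304 in sedentary infarct, 421 in running and 458 CPM in sedentary resting nuclei, against 246, 185, 203 and 248 CPM. These 3 genes were higher in each of the 4 libraries on their own. Dchs2, a large cadherin, Map2, a microtubule-associated protein, Cyp7b1, an oxysterol hydroxylase, and Pear1, a membrane receptor, were also past 1.5-fold in all 4 libraries. Glis3, a zinc finger transcription factor, passed with a lowest log2 ratio of 0.62, and lay under 1.5-fold in a library once marked nuclei were left out, as did Fam110b, Eya2 and Denn2b.

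On the adventitial side stood Mfap5, Ackr3 and Sema3c among others. Mfap5, a microfibril protein, was at 236 CPM in running infarct, 279 in sedentary infarct, 202 in running and 141 CPM in sedentary resting nuclei, against 504, 499.5, 458 and 404 CPM in adventitial-type nuclei. Ackr3, the scavenging receptor for CXCL12, was at 99.9 CPM in running infarct, 35.4 in sedentary infarct, 80.0 in running and 82.6 CPM in sedentary resting nuclei, against 189.9, 154, 273 and 286 CPM. The semaphorin gene Sema3c was at 230.2 CPM in running infarct, 171 in sedentary infarct, 143 in running and 126 CPM in sedentary resting nuclei, against 436, 306, 464 and 320.2 CPM. Uap1, an enzyme that makes UDP-N-acetylglucosamine, had log2 ratios of -2.18 in running infarct, -1.36 in sedentary infarct, -1.54 in running and -1.48 in sedentary libraries, and Adgrg2, an adhesion receptor, of -1.73, -1.56, -2.17 and -2.08. Broad fibroblast programmes showed few such genes. Of 12 homeostatic fibroblast genes measured, 0 passed in either direction (median log2 0.07), of 16 interstitial collagen genes 0 were higher and 1 lower (-0.08), of 13 basement membrane genes 0 passed (0.01), and of 21 fibroblast transcription factors 0 passed (-0.03). Elastic fibre genes had 0 higher and 2 lower of 8 (median -0.50), beside a median of 0.00 over all genes.

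**Figure D3:**
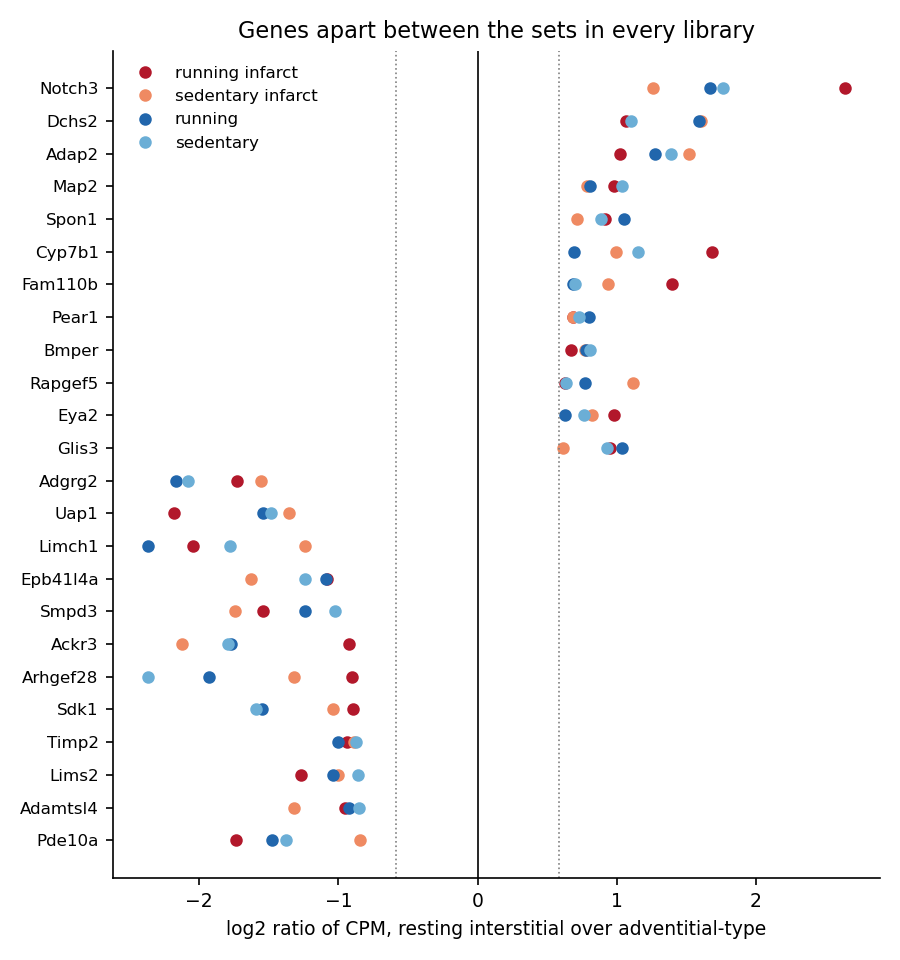
Log2 ratio of CPM, resting interstitial over adventitial-type nuclei, in each of the 4 libraries for the 12 genes on each side that passed 1.5-fold in all of them with the largest smallest ratio. Notch3 ranged from 1.26 to 2.64 on the higher side and Uap1 from -2.18 to -1.36 on the lower side. The values hold marked nuclei, and without them Smpd3 ranged from -0.36 to 0.20 and Epb41l4a from -1.19 to 0.45.

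More genes separated the selected nuclei from activated fibroblasts. Of 3799 genes, 82 (2.16%) were at least 1.5-fold higher in resting nuclei in all 4 libraries and 72 (1.9%) lower, again as a description. Dpep1, a membrane dipeptidase, stood at 336 CPM in running infarct, 291 in sedentary infarct, 362 in running and 297 CPM in sedentary resting nuclei, against 46.5, 55.5, 74.1 and 31.7 CPM in activated nuclei. Gsta3, a glutathione transferase, was at 161 CPM in running infarct, 344 in sedentary infarct, 546 in running and 519 CPM in sedentary resting nuclei, against 48.8, 67.0, 114.5 and 95.1 CPM. The transporter gene Abca6 was at 518 CPM in running infarct, 570.1 in sedentary infarct, 1009.7 in running and 753 CPM in sedentary resting nuclei, against 127, 208, 327 and 304 CPM. Xdh, which encodes xanthine dehydrogenase, Flt3l, a cytokine for dendritic cells, and Ifi205, an interferon-inducible gene, were higher as well, and 5 of 12 homeostatic genes passed (median log2 0.76).

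Lower in resting than in activated nuclei were matrix and oxidase genes. Nox4, a hydrogen peroxide producing oxidase, stood at 545 CPM in running infarct, 313 in sedentary infarct, 185 in running and 118 CPM in sedentary resting nuclei, against 1322, 1384, 896 and 653 CPM in activated nuclei. Fbn1, the gene of fibrillin, was at 588 CPM in running infarct, 405 in sedentary infarct, 272 in running and 341 CPM in sedentary resting nuclei, against 1365, 925, 959.8 and 919 CPM. Col14a1, a fibril-associated collagen, was at 239 CPM in running infarct, 205 in sedentary infarct, 133 in running and 109.7 CPM in sedentary resting nuclei, against 567, 508, 589 and 634 CPM. The resting levels of all 3 genes were higher in the infarct libraries than in the libraries without infarct, but stayed under the activated levels of the same library. Skil, a repressor of SMAD signalling, and Pmepa1, a TGF-beta target, were lower too, and 6 of 18 collagen genes passed with 0 higher (median log2 -0.45). Erbb4, a neuregulin receptor, was at 3.03 CPM (1 UMI) in running infarct, 50.9 in sedentary infarct, 57.7 in running and 54.9 CPM in sedentary resting nuclei, against 265, 247, 1057 and 900.2 CPM. Activated nuclei numbered 56 in the running and 36 in the sedentary library, so their levels there rest on few nuclei.

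The selected nuclei were not uniform, and the genes that varied most were held by few of them. After thinning to 1500 UMIs, the ratio of variance to mean over nuclei had a median of 1.11 over 4462 genes, and 86 genes reached 2. Wdr17 had the highest value, 12.97 as the median of the libraries, with a transcript in 15.8% of running infarct, 17.3% of sedentary infarct, 14.4% of running and 10.4% of sedentary nuclei. Rbfox1, an RNA-binding protein, followed at 11.5, Csmd1 at 10.5, Nkain2 at 9.07, Sntg1 at 7.70 and Il1rapl1 at 5.05. C7, a complement component, at 4.66, was seen in 9.21% of running infarct, 6.79% of sedentary infarct, 13.5% of running and 17.7% of sedentary nuclei, a subset of the set. Gpc6, a glypican, differed from these, with a value of 4.62 and a transcript in 92.1% of running infarct, 95.1% of sedentary infarct, 96.1% of running and 96.0% of sedentary nuclei, so that its variation was one of amount. F13a1, one of the macrophage markers, at 4.12, was the next gene.

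With infarct in runners, many homeostatic fibroblast genes were lower and several matrix genes were higher. Between running infarct and running nuclei, 364 of 4889 measured genes (7.45%) were at least 1.5-fold higher and 586 (12%) at least 1.5-fold lower, and 105 (2.15%) and 66 (1.35%) had their whole interval past 1.5-fold. Of 20 homeostatic fibroblast genes 16 were measured, of which 1 was higher and 10 lower, with a median log2 ratio of -0.74 beside -0.03 over all genes. Without marked nuclei, where 7.74% of all genes were higher and 12.5% lower, it was 1 and 8 of 15, with a median of -0.67. Hsd11b1, whose enzyme activates glucocorticoids, stood at 60.6 CPM in running infarct against 225 CPM in running nuclei, a ratio of 0.27 (0.163 to 0.422). The transporter gene Abca8b stood at 627 CPM in running infarct against 1374 CPM in running nuclei (0.456, 0.394 to 0.526), and Smoc2, a matricellular protein, at 418 against 823 CPM (0.508, 0.424 to 0.605). Mitochondrial UMIs, lower in the running infarct library, were left out of the CPM.

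Single genes showed larger differences than these lists. Lepr, the leptin receptor, stood at 42.4 CPM in running infarct against 219.8 CPM in running nuclei (ratio 0.193, 0.105 to 0.328). Gsta3 was at 161 CPM in running infarct against 546 CPM in running nuclei (0.294, 0.219 to 0.388). Fap, a membrane protease known from activated stroma, was on the lower side too, at 236 CPM in running infarct against 672 CPM in running nuclei (0.352, 0.276 to 0.442). Gna14, a G-protein subunit, Rgs7, another regulator of G-protein signalling, Cys1, Anks1b and Egr1, an immediate early transcription factor, completed the lower side with Cadm2, of whose UMIs 88.7% in running nuclei came from 5 nuclei.

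The higher side held Fn1 and 6 collagen and crosslinking genes. Fn1, which encodes fibronectin, stood at 333 CPM in running infarct against 33.7 CPM in running nuclei, a ratio of 9.88 (7.17 to 13.7). Among 18 measured collagen and crosslinking genes 6 were higher and 0 lower (median log2 0.14), beside 7.45% and 12% of all genes. Col3a1 stood at 1269 CPM in running infarct against 543 CPM in running nuclei (2.34, 2.08 to 2.62), and Col1a1 at 218 against 94.1 CPM (2.32, 1.74 to 3.07). The elastic fibre gene Fbn1 was at 588 CPM in running infarct against 272 CPM in running nuclei (2.16, 1.82 to 2.55). Ccn5, a matricellular protein, was at 173 CPM in running infarct against 43.5 CPM in running nuclei (3.97, 2.77 to 5.64). Dkk3, a secreted protein of the Dickkopf family, Gucy1a1, a subunit of the nitric oxide receptor, Shroom3, an actin-binding protein, Flrt2, an adhesion protein, and Pawr had ratios of 4.37, 4.39, 4.22, 4.32 and 7.58 in that order. Without marked nuclei the log2 ratio was 0.73 instead of 2.11 for Flrt2 and 1.46 instead of 2.92 for Pawr. Of 18 adhesion and guidance genes 7 were higher and 4 lower (median log2 -0.16), and without marked nuclei 4 and 3 of 17 (-0.07). Over the 10 genes with the farthest bound, which also hold Pals2, the 5 nuclei with most UMIs held 45.5 to 77.7% of a gene's UMIs in the running infarct library, and all 10 stayed past 1.5-fold without marked nuclei. Nkain2, at 1502 CPM in running infarct against 351 CPM in running nuclei, and Il1rapl1, at 699.6 against 107 CPM, were among the most uneven genes over nuclei in every library.

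Receptors, channels and transcription factors stood on both sides. Over all genes of this comparison 7.45% were higher and 12% lower. Lower members of the transcription factor and TGF-beta lists were not clearly more frequent than that. Il1r1, the interleukin-1 receptor, was at 597 CPM in running infarct against 252 CPM in running nuclei (2.36, 1.99 to 2.80), while Il33, an alarmin, was at 72.7 against 140.4 CPM (0.518, 0.326 to 0.788). Gata6 stood at 212 CPM in running infarct against 92.5 CPM in running nuclei (2.29, 1.71 to 3.05) and Tbx20 at 1208 against 639 CPM (1.89, 1.68 to 2.12), and of 21 fibroblast transcription factors measured 4 were higher and 1 lower. Of 19 measured TGF-beta and BMP genes 4 were higher and 3 lower, with the inhibitory Smad6 at 139 CPM in running infarct against 54.4 CPM in running nuclei and Ltbp1, a latent TGF-beta binding protein, at 197 against 436 CPM. The mechanically gated channel Piezo2 was at 203 CPM in running infarct against 60.9 CPM in running nuclei (3.33, 2.42 to 4.55), and the potassium channel Kcnk2 at 99.9 against 233 CPM (0.429, 0.292 to 0.612). Basement membrane genes had 0 higher and 3 lower of 14, with Nid1 at 282 CPM in running infarct against 575 CPM in running nuclei. Of 6 measured myofibroblast genes outside the rule 3 were higher and 1 lower. Pericyte markers had 3 of 3 measured genes higher in the same comparison and cardiomyocyte markers 5 of 11 lower, and their part in these values was not tested.

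In sedentary mice fewer genes passed 1.5-fold with infarct, in libraries that held more of the selected nuclei. Between sedentary infarct and sedentary nuclei, 200 of 5020 measured genes (3.98%) were past 1.5-fold on the higher side and 318 (6.33%) on the lower, and 63 (1.25%) and 52 (1.04%) had the whole interval past it. The 10 higher genes with the farthest bound, Ccn2 and Mfap4 among them, were unevenly spread over nuclei. The 5 nuclei with most UMIs held 20.8 to 86.1% of a gene's UMIs in the sedentary infarct library, with a median of 64.6%. Ccn2, a TGF-beta target also called connective tissue growth factor, stood at 130.1 CPM in sedentary infarct against 18.1 CPM in sedentary nuclei, a ratio of 7.20 (4.67 to 11.4). The microfibril gene Mfap4 was at 97.6 CPM in sedentary infarct against 21.3 CPM in sedentary nuclei (4.58, 2.98 to 7.16), and Mfap5 at 279 against 141 CPM (1.97, 1.62 to 2.40). Col8a1, a short-chain collagen, was at 2156 CPM in sedentary infarct against 1163 CPM in sedentary nuclei (1.85, 1.73 to 1.99), Col1a1 at 199 against 94.2 CPM (2.12, 1.67 to 2.69), and of 19 collagen and crosslinking genes 4 were higher and 3 lower. Among 7 myofibroblast genes 3 were higher and 0 lower, with Fn1 at 100.4 CPM in sedentary infarct against 32.9 CPM in sedentary nuclei (3.05, 2.10 to 4.46) and Itgbl1, an integrin-like protein, at 1102 against 549.9 CPM (2.00, 1.82 to 2.21).

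Homeostatic genes mostly stayed within 1.5-fold here, where 3.98% of all genes were higher and 6.33% lower. Of 16 measured 2 were higher and 1 lower (median log2 -0.18), with G0s2, an inhibitor of lipolysis, at 45.3 CPM in sedentary infarct against 121 CPM in sedentary nuclei (0.373, 0.248 to 0.545). Fgf10, a growth factor of epithelia and fat, was at 14.1 CPM in sedentary infarct against 75.5 CPM in sedentary nuclei (0.187, 0.0875 to 0.357). Ret, the signalling receptor that pairs with Gfra1, was at 18.4 CPM in sedentary infarct against 70.4 CPM in sedentary nuclei (0.261, 0.135 to 0.466). It was the only 1 of 4 measured genes of the GDNF and neurotrophin list past 1.5-fold. Gfra1 itself, a gene of the rule that this count leaves out, had a log2 ratio of -0.68. The inhibitory Smad7 stood at 189.6 CPM in sedentary infarct against 76.8 CPM in sedentary nuclei (2.47, 1.91 to 3.19), and of 19 TGF-beta and BMP genes 2 were higher and 0 lower. In proteoglycans, Bgn was at 390.4 CPM in sedentary infarct against 240.1 CPM in sedentary nuclei, and Ogn at 116 against 200.1 CPM. Muc16, a mucin of mesothelium, was at 224 CPM in sedentary infarct against 25.8 CPM in sedentary nuclei, and Dpp4 at 116 against 29.0 CPM. Without marked nuclei neither was higher, with log2 ratios of -1.07 for Muc16, past 1.5-fold on the lower side, and -0.24 for Dpp4. Nppa, a natriuretic peptide gene of cardiomyocytes, was at 146 CPM in sedentary infarct against 12.9 CPM in sedentary nuclei, and the cardiomyocyte gate of the sedentary infarct library held too few nuclei to compare it with.

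The pairs of libraries with and without infarct share no library, so genes that differed the same way in runners and sedentary mice rest on separate pools. Of 4678 genes measured in both, 7.31% were higher in runners and 3.78% in sedentary mice, and 11.4% and 5.62% were lower. In these, 81 genes were higher in both, which is 23.7% of the 342 higher in runners and 45.8% of the 177 higher in sedentary mice. Lower in both were 86, which is 16.1% of 534 and 32.7% of 263. Opposite differences were seen in 8 and 12 genes. Ccn5, Fn1, Nox4 and Gpr39 were higher in both pairs with and without marked nuclei. Ccn5 stood at 173 CPM in running infarct against 43.5 CPM in running nuclei and at 102 CPM in sedentary infarct against 31.6 CPM in sedentary nuclei, with log2 ratios of 1.99 and 1.69, or 1.93 and 1.70 without marked nuclei. For Nox4 the values were 545 CPM in running infarct against 185 CPM in running nuclei and 313 CPM in sedentary infarct against 118 CPM in sedentary nuclei (log2 1.56 and 1.40). Gpr39, a zinc-sensing receptor, was at 348 CPM in running infarct against 126 CPM in running nuclei and at 168 CPM in sedentary infarct against 58.1 CPM in sedentary nuclei (log2 1.46 and 1.53). Both infarct libraries lay above both others for these genes. The 6 activation genes of the rule summed to 224 CPM in running infarct, 211 in sedentary infarct, 46.2 in running and 45.8 CPM in sedentary nuclei. With at most 1 activation UMI per nucleus, 49 genes instead of 81 were higher in both pairs, and 81 instead of 86 lower. The part of nuclei with activation UMIs in the differences named here was not tested.

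Several of the largest differences shared by both pairs rested on marked nuclei. Pkhd1l1 had log2 ratios of 2.27 in runners and 2.18 in sedentary mice, and 0.13 and -0.21 without marked nuclei. Thsd4, a microfibril-associated protein, had 2.52 and 3.23, and 1.69 and 0.44 without them. The guidance and adhesion genes Flrt2 and Cdh11 kept 0.73 and 1.87 in runners but 0.31 and 0.38 in sedentary mice. Genes lower in both pairs included cardiomyocyte transcripts, whose marker sum was also lower in both infarct libraries. The log2 ratios in runners and sedentary mice were -0.73 and -0.85 for Myh6, -0.84 and -0.69 for Pln, and -1.48 and -0.92 for Actn2. The part of such transcripts in the shared list was not tested. Lepr, Gna14, Rgs7, Gsta3 and Lvrn were lower in both pairs as well. Lepr stood at 42.4 CPM in running infarct against 219.8 CPM in running nuclei and at 38.2 CPM in sedentary infarct against 113 CPM in sedentary nuclei (log2 -2.37 and -1.56), and Gna14 at 9.09 against 86.0 CPM and at 24.0 against 81.3 CPM in the same pairs (-3.24 and -1.76). Rgs7 had log2 ratios of -1.97 and -1.44, Gsta3 of -1.77 and -0.59, and Lvrn, an aminopeptidase, of -1.26 and -0.70. The levels of Lepr and Gna14 in both infarct libraries were below those in both others.

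**Figure D4:**
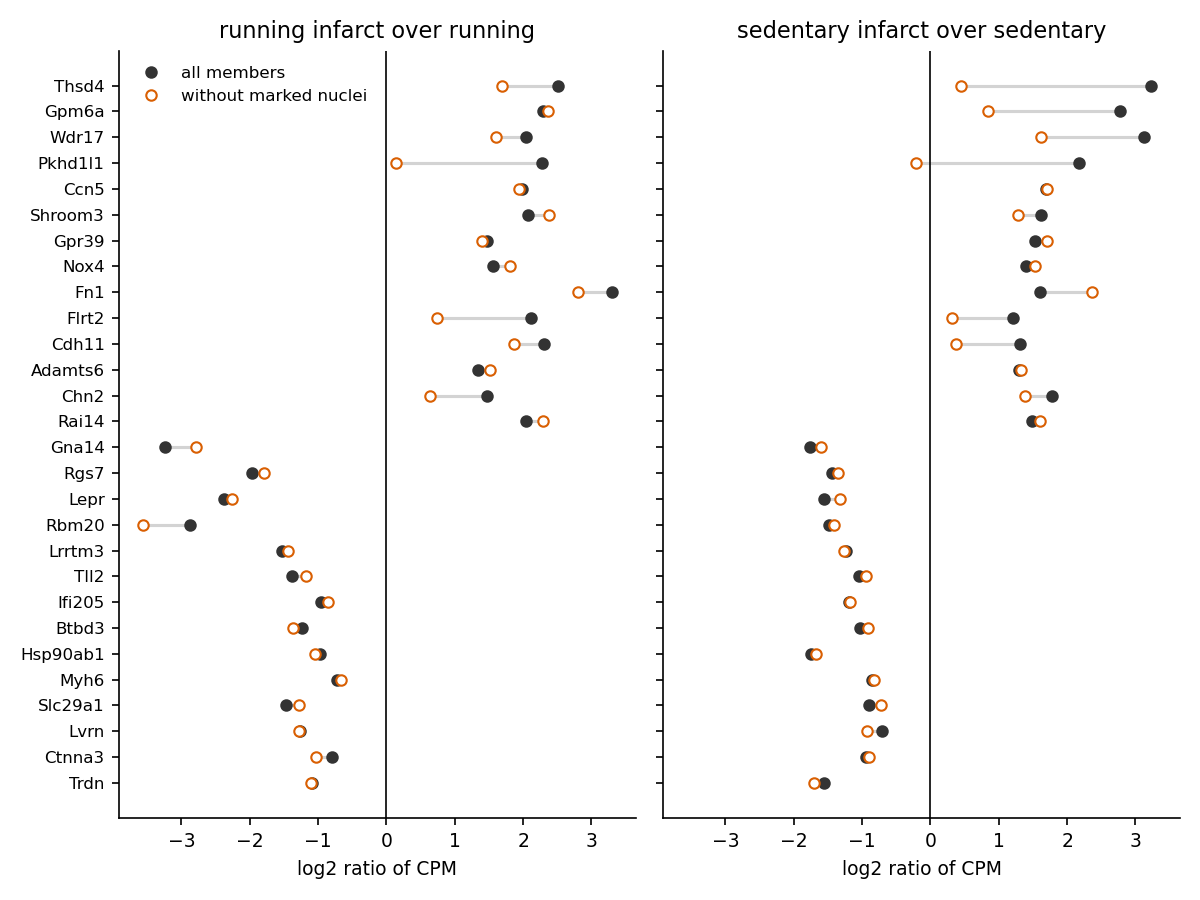
Log2 ratio of CPM for the genes past 1.5-fold the same way in running infarct over running (left) and sedentary infarct over sedentary (right), rule genes left out, with all selected nuclei (filled) and without marked nuclei (open). Pkhd1l1 was at 2.27 and 2.18 with all nuclei and at 0.13 and -0.21 without marked nuclei, while Ccn5 stayed at 1.93 and 1.70.

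Between running and sedentary nuclei without infarct, the list with most members past 1.5-fold was that of the heat shock genes. These values share libraries with both infarct comparisons. Of 6565 measured genes 156 (2.38%) were past 1.5-fold on the running side and 154 (2.35%) on the sedentary side, and 19 (0.289%) in each direction had the whole interval past 1.5-fold. Heat shock genes, which encode chaperones of unfolded proteins, had 0 higher and 10 lower of 12 measured, with a median log2 ratio of -1.08 beside -0.01 over all genes. Hsph1 stood at 47.3 CPM in running against 169 CPM in sedentary nuclei (ratio 0.280, 0.217 to 0.358), Hsp90aa1 at 56.6 against 147 CPM (0.384, 0.302 to 0.487) and Dnaja1 at 158 against 339 CPM (0.467, 0.403 to 0.540). Hspa5, the chaperone of the endoplasmic reticulum, was at 64.2 CPM in running against 139 CPM in sedentary nuclei (0.463, 0.366 to 0.582). P4ha1, a collagen prolyl hydroxylase, was at 281 against 553 CPM (0.507, 0.454 to 0.567) and Serpinh1, the collagen chaperone, at 66.4 against 116 CPM (0.574, 0.453 to 0.727). With P4ha1 and Serpinh1, 4 of 20 collagen and crosslinking genes were lower and 0 higher.

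The sedentary library without infarct was the high one for heat shock genes, not only against running. Between sedentary infarct and sedentary nuclei 0 of 12 heat shock genes were higher and 11 lower (median log2 -1.53), with Dnaja1 at 93.4 CPM in sedentary infarct against 339 CPM in sedentary nuclei and Hsp90ab1 at 94.8 against 319 CPM. Between running infarct and running nuclei 3 of 8 were lower (median -0.47). The pattern was not confined to the selected nuclei: adventitial-type nuclei had 11 of 12 heat shock genes lower in running against sedentary (median -0.95) and 11 of 12 in sedentary infarct against sedentary (-1.51), where 1.76% and 5.57% of all genes measured in that set were lower. The counts differed between nuclei with and without Y-linked transcripts. Between running and sedentary, 11 of 12 were lower among Y-positive nuclei (median -1.45) and 3 of 12 among Y-negative nuclei (-0.37), beside 5.58% and 6.08% of all genes, and for Hsph1 the log2 ratio was -2.88 and -0.39. Between sedentary infarct and sedentary it was 10 of 11 among Y-positive (-1.94) and 9 of 12 among Y-negative nuclei (-0.76), beside 13.2% and 8.13% of all genes. A single heart, sex and handling of the sedentary pool cannot be told apart.

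**Figure D5:**
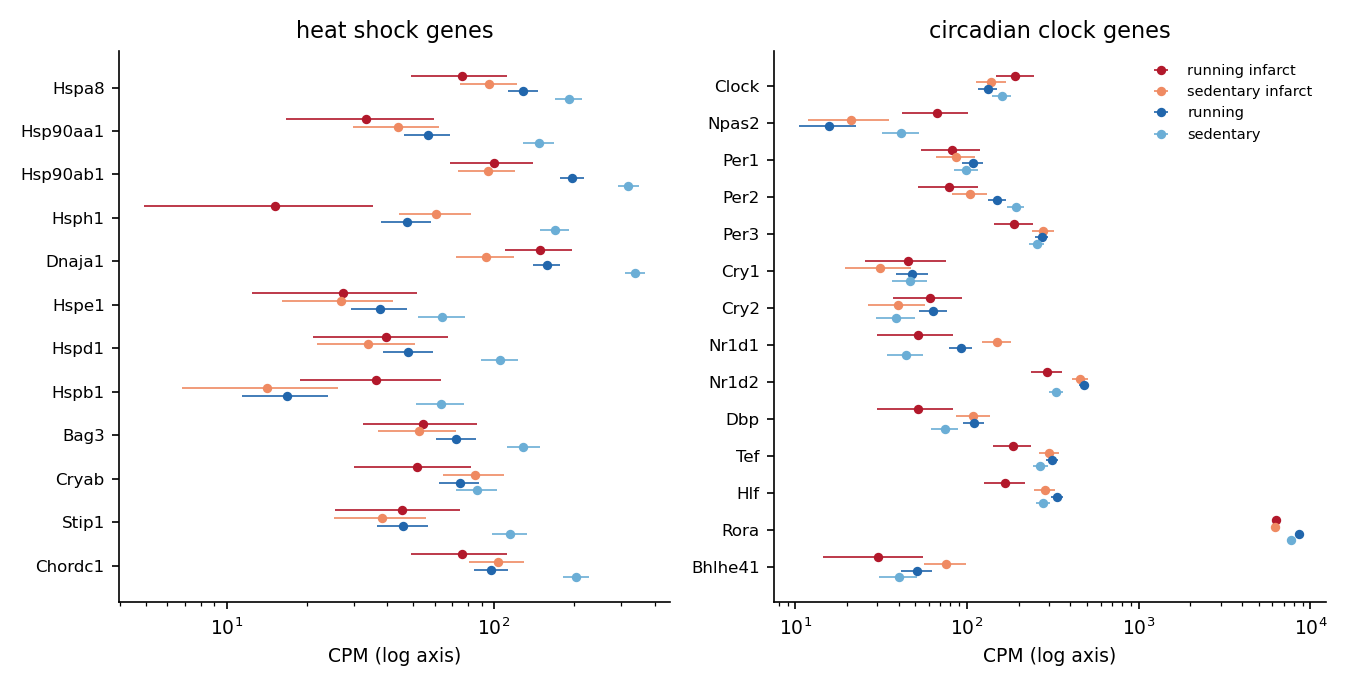
CPM (log axis) of heat shock genes (left) and circadian clock genes (right) in the selected nuclei of each library, with 95% counting intervals. Dnaja1 was at 148 CPM in running infarct, 93.4 in sedentary infarct, 158 in running and 339 CPM in sedentary nuclei, and Nr1d1 at 51.5, 149.9, 91.9 and 43.9 CPM.

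Few other lists differed between running and sedentary nuclei, where 2.38% of all genes were higher and 2.35% lower. Lepr stood at 219.8 CPM in running against 113 CPM in sedentary nuclei (1.95, 1.63 to 2.34) and Ccnd1, cyclin D1, at 46.8 against 16.8 CPM (2.79, 1.78 to 4.51). The immediate early genes Egr1, at 76.2 against 32.9 CPM (2.31, 1.67 to 3.25), and Junb, at 60.4 against 28.4 CPM, were the 2 higher of 8 measured. Lpl, lipoprotein lipase, was at 164 CPM in running against 289 CPM in sedentary nuclei (0.568, 0.489 to 0.658) and Ret at 34.8 against 70.4 CPM (0.495, 0.358 to 0.680). Of 21 fibroblast transcription factors, 14 basement membrane genes, 20 TGF-beta and BMP genes and 22 ribosomal protein genes 0 were past 1.5-fold in either direction, with medians of 0.00, 0.04, 0.00 and 0.05. Haemoglobin transcripts, which come from red blood cells, were higher in running nuclei, with Hba-a1 at 83.2 CPM in running against 23.9 CPM in sedentary nuclei and Hbb-bs at 120.2 against 48.4 CPM.

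After infarct, running and sedentary nuclei could be compared in 2571 genes, of which 134 (5.21%) passed 1.5-fold on the running infarct side and 157 (6.11%) on the sedentary infarct side, with 35 (1.36%) and 17 (0.661%) whole intervals past 1.5-fold. The 80 running infarct nuclei limit this comparison. Fn1 stood at 333 CPM in running infarct against 100.4 CPM in sedentary infarct nuclei (3.32, 2.44 to 4.54), Il1r1 at 597 against 342 CPM (1.74, 1.44 to 2.11) and Angpt1, a ligand of the endothelial receptor TIE2, at 524 against 298 CPM (1.76, 1.43 to 2.16). Tbx20 was at 1208 CPM in running infarct against 723 CPM in sedentary infarct nuclei (1.67, 1.46 to 1.91), and with Gata6 it made up the 2 higher of 20 fibroblast transcription factors, with 0 lower. Sntg1, Nkain2, Gabra3, Nhs, Il1rapl1, Rgs6 and Kalrn, on the higher side beside Hbb-bs, had ratios of 2.70 to 5.22. Over the 10 genes of the higher side with the farthest bound, 5 nuclei held a median of 54.5% of a gene's running infarct UMIs. Adhesion and guidance genes had 6 of 15 higher and 1 lower, and 1 of 10 higher and 1 lower without marked nuclei, where 5.52% of all genes were higher and 7.81% lower.

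The lower side held Fap, Gsta3, Col6a3, Prex2, Trhde and Bmp4 among others. Fap was at 236 CPM in running infarct against 506 CPM in sedentary infarct nuclei (0.466, 0.360 to 0.597), Gsta3 at 161 against 344 CPM (0.467, 0.340 to 0.631) and Col6a3, a chain of collagen VI, at 191 against 369 CPM (0.517, 0.386 to 0.683). Prex2, an activator of the GTPase RAC, was at 599.7 CPM in running infarct against 1218 CPM in sedentary infarct nuclei (0.492, 0.420 to 0.575), and Trhde, a peptidase, at 69.7 against 252 CPM (0.277, 0.171 to 0.428). Bmp4 was at 66.6 CPM in running infarct against 153 CPM in sedentary infarct nuclei (0.436, 0.262 to 0.695). Of 13 homeostatic genes 0 were higher and 2 lower (median log2 -0.24), beside 5.21% and 6.11% of all genes. Collagen genes had 0 higher and 2 lower of 15, and Col3a1, at 1269 CPM in running infarct against 867 CPM in sedentary infarct nuclei (1.46, 1.29 to 1.66), stayed under 1.5-fold. No cell cycle gene was measured in this or any of the other 3 comparisons between libraries.

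Of the circadian clock genes, 0 were higher and 4 lower of 8 measured between running infarct and sedentary infarct nuclei (median log2 -0.60), and between running infarct and running nuclei 0 were higher and 7 lower of 13 (median -0.73, and 7 of 11 with -0.66 without marked nuclei). Over all genes 6.11% and 12% were lower in these comparisons. Hlf, a clock output factor, stood at 167 CPM in running infarct, 284 in sedentary infarct, 336 in running and 277 CPM in sedentary nuclei. Nr1d2, a clock repressor, was at 291 CPM in running infarct, 455 in sedentary infarct, 483 in running and 329.8 CPM in sedentary nuclei. Nr1d1, its relative, was at 51.5 CPM in running infarct, 149.9 in sedentary infarct, 91.9 in running and 43.9 CPM in sedentary nuclei, so its order differed from that of Hlf. The ratio for Nr1d1 was 0.343 (0.193 to 0.576) between the infarct libraries, 3.42 (2.50 to 4.70) for sedentary infarct over sedentary and 2.09 (1.57 to 2.82) for running over sedentary. Adventitial-type nuclei had 8 of 14 clock genes lower between the infarct libraries (median -0.70) and activated nuclei 6 of 15 (-0.43), where 3.25% and 1.95% of all genes measured in those sets were lower. The hour at which hearts were taken is not given in the sources used here, and hour and group cannot be told apart.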

How the data were processed

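Each of the 4 libraries was read as the deposited matrix of raw UMI counts per gene and barcode, which the authors made with Cell Ranger 7.1 on GRCm39, per the submitters' processing notes. Each group had 1 library, so no test was run. Barcodes under 300 genes or over 20% mitochondrial UMIs were dropped, and the rest were gated by the rule. Scrublet (scanpy 1.11.5) called 0 doublets in each library, so its threshold did not work here, none were removed, and leaving out the highest scores was an alternative. Counts of the selected nuclei were summed per library and divided by their total without the 37 mitochondrially encoded genes, per 1000000 (CPM). CPM had exact Poisson, ratios exact conditional binomial and shares exact Clopper-Pearson intervals, computed with scipy 1.17.1, and a ratio of shares had a log-scale interval. Measured genes were those with at least 100 UMIs over both libraries, or over both sets in every library, and a gene was counted when past 1.5-fold. For detection and variation, nuclei were thinned to 1500 UMIs, leaving out 4 running infarct, 3 sedentary infarct, 7 running and 4 sedentary nuclei.

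The members, the 25 gene lists, the 12 marker lists and the settings were chosen with earlier results of these data known. Named genes were, per comparison and direction, the 10 with the interval bound farthest from even that moved the same way in Y-positive nuclei (at least 1 UMI of 4 Y-linked genes) and Y-negative nuclei and had at most 5 times the CPM in other gates of at least 50 nuclei. For comparisons of sets they were the 15 with the largest smallest ratio, and for lists up to 4 members past 1.5-fold. Genes higher or lower in both infarct comparisons, and marked nuclei, were chosen after their values were seen. A few genes that these rules name are not reported here. The steps were tested on simulated data. Alternatives were other limits on mitochondrial UMIs, genes, activation and marker UMIs, doublets, depth, sex, low counts, scaling and weight.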

Additional observations from a re-analysis of the deposited data

Results flagged for a closer look

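In 6 named genes the difference with infarct pointed one way in runners and the other way in sedentary mice, past 1.5-fold in both. None of these differences between the pairs was tested, since each group is 1 library. No counting interval is given here for these ratios. The running infarct nuclei held 330174 UMIs without mitochondrial genes, so Bhlhe41 and Bmp4 rest on few UMIs there. Their differences in runners may not exceed the error of counting. The log2 ratios, running infarct over running and then sedentary infarct over sedentary, were 1.01 and -2.42 for Fgf10, -0.84 and 1.77 for Nr1d1, -1.32 and 1.12 for Trhde, -0.93 and 0.75 for Ntm, -0.76 and 0.91 for Bhlhe41, and -0.60 and 0.67 for Bmp4. Fgf10 stood at 106 CPM in running infarct, 14.1 in sedentary infarct, 52.8 in running and 75.5 CPM in sedentary nuclei. Trhde was at 69.7 CPM in running infarct, 252 in sedentary infarct, 174 in running and 116 CPM in sedentary nuclei, and Ntm, a neural adhesion protein, at 84.8, 151, 161 and 89.7 CPM in the same order. Nr1d1 and Bhlhe41 are both clock genes, and Bhlhe41 was at 30.3 CPM in running infarct, 74.97 in sedentary infarct, 51.1 in running and 40.0 CPM in sedentary nuclei.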

How the results depend on the processing

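No paired analysis was possible because each group is 1 library and no replicate numbers are shared, and for the same reason no library could be left out. The settings for comparisons of sets and for both infarct pairs, and leaving out marked nuclei, were chosen after seeing the data. Of counts of genes 121 stayed within 1.5 times of the reported value and 57 did not. Of list medians 1220 stayed within an interval of the reported median drawn from the ranked values of its members, 65 moved and 5 reversed. Only reported medians at least 1.5-fold in size could be called reversed. Changes of sign in smaller ones fall under the other labels. Of values of named genes 737 stayed and 114 moved, where the gene still passed the UMI filter of the setting. Genes that fell under it were not counted, as with Muc16 and Dpp4, which changed direction without marked nuclei. With at most 5% mitochondrial UMIs the set held 52 running infarct, 118 sedentary infarct, 51 running and 218 sedentary nuclei. A stricter filter or fewer nuclei leaves fewer genes to count by construction, and otherwise the cause was not tested.

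Higher and lower counts for running infarct over running, reported as 364 and 586, were 124 and 103 with at most 5% mitochondrial UMIs, 170 and 269 in Y-negative nuclei, 1338 and 2184 with a filter of 20 UMIs and 36 and 68 with 500 UMIs. For sedentary infarct over sedentary, reported as 200 and 318, the lower count was 177 with at most 5% mitochondrial UMIs, and both were 133 and 151 in Y-negative nuclei, 968 and 1389 with 20 UMIs and 23 and 29 with 500 UMIs. For running over sedentary, reported as 156 and 154, they were 66 and 77 in Y-negative nuclei, 922 and 768 with 20 UMIs and 8 and 10 with 500 UMIs. For running infarct over sedentary infarct, reported as 134 and 157, they were 81 and 96 in nuclei thinned before the rule, 60 and 55 in Y-positive nuclei, 917 and 1129 with 20 UMIs and 9 and 10 with 500 UMIs.

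Against adventitial-type nuclei (14 and 43), counts were 4 and 9 with at most 5% mitochondrial UMIs, 4 and 13 in Y-positive nuclei, 5 and 23 in Y-negative nuclei, and the higher count was 7 with at most 1 activation UMI, 23 with no activation limit and 8 without marked nuclei. Against activated nuclei (82 and 72) they were 25 and 18 with at most 5% mitochondrial UMIs, 34 and 28 in Y-positive nuclei and 40 and 35 in Y-negative nuclei. For both infarct pairs (81 and 86) they were 24 and 8 with at most 5% mitochondrial UMIs, 34 and 32 in Y-negative nuclei, 289 and 469 with 20 UMIs and 6 and 10 with 500 UMIs, and the higher count was 49 with at most 1 activation UMI, 43 with at least 4 marker UMIs, 50 in thinned nuclei, 41 in Y-positive nuclei and 49 without marked nuclei.

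The ratio of shares for running infarct over running, 0.346, was 0.244 with at most 5% mitochondrial UMIs, 0.260 with at most 1 activation UMI and 0.270 with at least 4 marker UMIs. For sedentary infarct over sedentary, 0.591, it was 0.459 with at most 1 activation UMI and 0.487 in thinned nuclei. For running over sedentary, 0.983, it was 1.14 with at most 5% mitochondrial UMIs, 1.15 in Y-positive nuclei and 0.811 in Y-negative nuclei, so its direction turned. The 5 reversed medians were those of the GDNF list for running infarct over running (0.15 with at most 5% mitochondrial UMIs, 0.050 with at most 1 activation UMI, 0.30 in Y-negative nuclei), of immediate early genes in the same comparison (0.24 in thinned nuclei) and of clock genes between the infarct libraries (0.023 with 500 UMIs).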
